A study of Homo sapiens with 44 samples.

Results

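The response to dexamethasone (dex), a synthetic glucocorticoid, was measured in HEK293-GR cells in which IRF2BP2 had been lowered by RNA interference. The libraries are the siIRF2BP2 dex and siIRF2BP2 EtOH columns of the HEK293-GR expression table, replicates 1 to 3 of each, so 6 of the 44 samples of the series, and the response was read over all 25690 genes of that table. HEK293-GR cells are Flp-In HEK293 cells, a line of human embryonic kidney origin, with a constantly expressed glucocorticoid receptor transgene, and both groups carry it. Cells stood in steroid-depleted medium with 20 nM siIRF2BP2, a pool of small interfering RNAs against IRF2BP2, for 72 h, and then received 100 nM dex or its vehicle, ethanol (EtOH), for 6 h. Cells given siNON, a non-targeting pool, under the same dex and EtOH treatments form the matching control response (6 libraries, 3 under dex and 3 under EtOH). The labels number 4 replicates per group, and replicate 4 was not analysed here. The study's design text calls the replicates biological, without naming the cultures, so the p-values measure the spread between these libraries.

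Glucocorticoids bind the glucocorticoid receptor, a nuclear receptor that then enters the nucleus and acts on genes near its binding sites, inducing some and repressing others. The textbook induced genes hold feedback inhibitors of inflammatory and growth signalling, regulators of fuel use and salt transport, and clock genes. IRF2BP2 is a nuclear cofactor first described as a partner of the interferon regulatory factor IRF2, and it is best known as a corepressor. Kidney-derived lines such as HEK293 also express many transcription factors of the developing kidney and nervous system.

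Library depth was 18.2 to 28.5 M tags among the siIRF2BP2 libraries and 18.8 to 22.4 M tags among the siNON libraries. Libraries of a group correlated at 0.988 to 0.996 over log2 values, but siIRF2BP2 EtOH replicate 2 stood apart from its group: on the first principal component of the 12 libraries the siIRF2BP2 EtOH libraries lay at 25.9, 36.8 and 24.3, and on the second at -0.64, 15.6 and 1.18. Among the controls siNON EtOH replicate 3 lay at 26.1 on the first component, where replicates 1 and 2 of that group lay at 8.74 and 11.8. Counts of called genes in the siIRF2BP2 response are therefore given with and without these libraries where the difference matters. The HEK293 marker list (12 genes, all expressed) summed to 124 to 134 FPKM under dex, against 147 to 160 FPKM under EtOH. The A549 marker list summed to 62.0 to 77.3 FPKM under dex, against 13.3 to 14.1 FPKM under EtOH, and without S100P, itself one of the largest rises, to 10.2 to 11.9 FPKM under dex, against 10.3 to 11.6 FPKM under EtOH. Markers of blood, endothelial and fibroblast cells summed to 15.9 to 17 FPKM under dex, against 15.1 to 18.3 FPKM under EtOH, with 5 of the 15 (PTPRC, HBB, CDH5, DCN and PDGFRB) under 0.1 FPKM in all 6 libraries. KDR was its 1 call, a rise lost without siIRF2BP2 dex replicate 2. What these sums have to do with the responses was not tested. FPKM, fragments per kilobase of exon scaled to the tags of the library, are a level per length.

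IRF2BP2 had 9.64, 11.1 and 10.4 FPKM under dex, against 12.6, 11.8 and 13.7 FPKM under EtOH in siIRF2BP2 cells. In siNON cells it had 20.6, 20.0 and 19.3 FPKM under dex, against 23.4, 25 and 20.3 FPKM under EtOH. All 6 knockdown libraries lay below all 6 control libraries, with a log2 difference of -0.94 ± 0.08 under dex (adjusted p = 3.44e-06) and of -0.84 ± 0.08 under EtOH (adjusted p = 1.87e-05). Within siIRF2BP2 cells, dex libraries lay below EtOH libraries, and IRF2BP2 fell by 0.29 ± 0.08 on the log2 scale (adjusted p = 0.037). That small fall did not pass the threshold without siIRF2BP2 dex replicate 1 or 3, without siIRF2BP2 EtOH replicate 1 or 3, or without any of the siNON dex libraries, nor with the replicate number as a block in the fit (replicate block) or with no filter on low values, where its log2 fold changes were all negative. NR3C1, the glucocorticoid receptor, had 34.3, 36.9 and 28.8 FPKM under dex, against 34.8, 36.3 and 39.2 FPKM under EtOH, and its groups overlapped (log2 fold change -0.15 ± 0.09, adjusted p = 0.443). Over all tested genes, siIRF2BP2 against siNON gave calls in 39.7% of genes under dex (22.4% higher and 17.3% lower) and in 15.5% under EtOH (7.48% lower, the direction of IRF2BP2). Transgene and endogenous receptor reads cannot be told apart in this table.

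After knockdown, dex raised 914 and lowered 716 of the 15594 genes tested, which is 5.86% and 4.59% of them (10.5% in all, by limma on log2 of FPKM plus 0.1, Benjamini-Hochberg adjusted p under 0.05). The other 10096 genes had too few reads. Of the raised genes 258 rose by at least 1 on the log2 scale, 73 by at least 2 and 28 by at least 3. Of the lowered genes 114 fell by at least 1 and 1 by at least 2. That 1 gene, ZNF624, a zinc-finger gene picked out after its values were seen, had 0.137, 0.104 and 0.157 FPKM under dex, against 0.896, 1.28 and 0.682 FPKM under EtOH and fell by 2.15 ± 0.25 on the log2 scale (adjusted p = 1.06e-05). The 3 dex libraries did not overlap the 3 EtOH libraries in 910 of the 914 raised and 715 of the 716 lowered genes, where the share of all tested genes without overlap was 12.8% upward and 12.5% downward. Without siIRF2BP2 EtOH replicate 2, 778 genes rose and 705 fell, and without siNON EtOH replicate 3, 1117 rose and 938 fell. The authors' deposited table calls 819 genes higher and 825 lower in the same comparison (FDR under 0.05), 3.19% and 3.21% of its genes. Limma called 768 of those higher genes and 651 of those lower genes in the same direction. Those shared genes are 84.0% of the raised and 90.9% of the lowered genes here, and 93.8% and 78.9% of the authors' lists. Genes named below as raised or lowered that the authors' table does not call include IGFBP3 (FDR 0.494), CXCL2 (0.536) and MT1F (0.546). Others are CIART (0.129), SNAI2 (0.0688), CDH2 (0.0682), STAT2 (0.0642) and WT1 (0.0555).

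**Figure D1:**
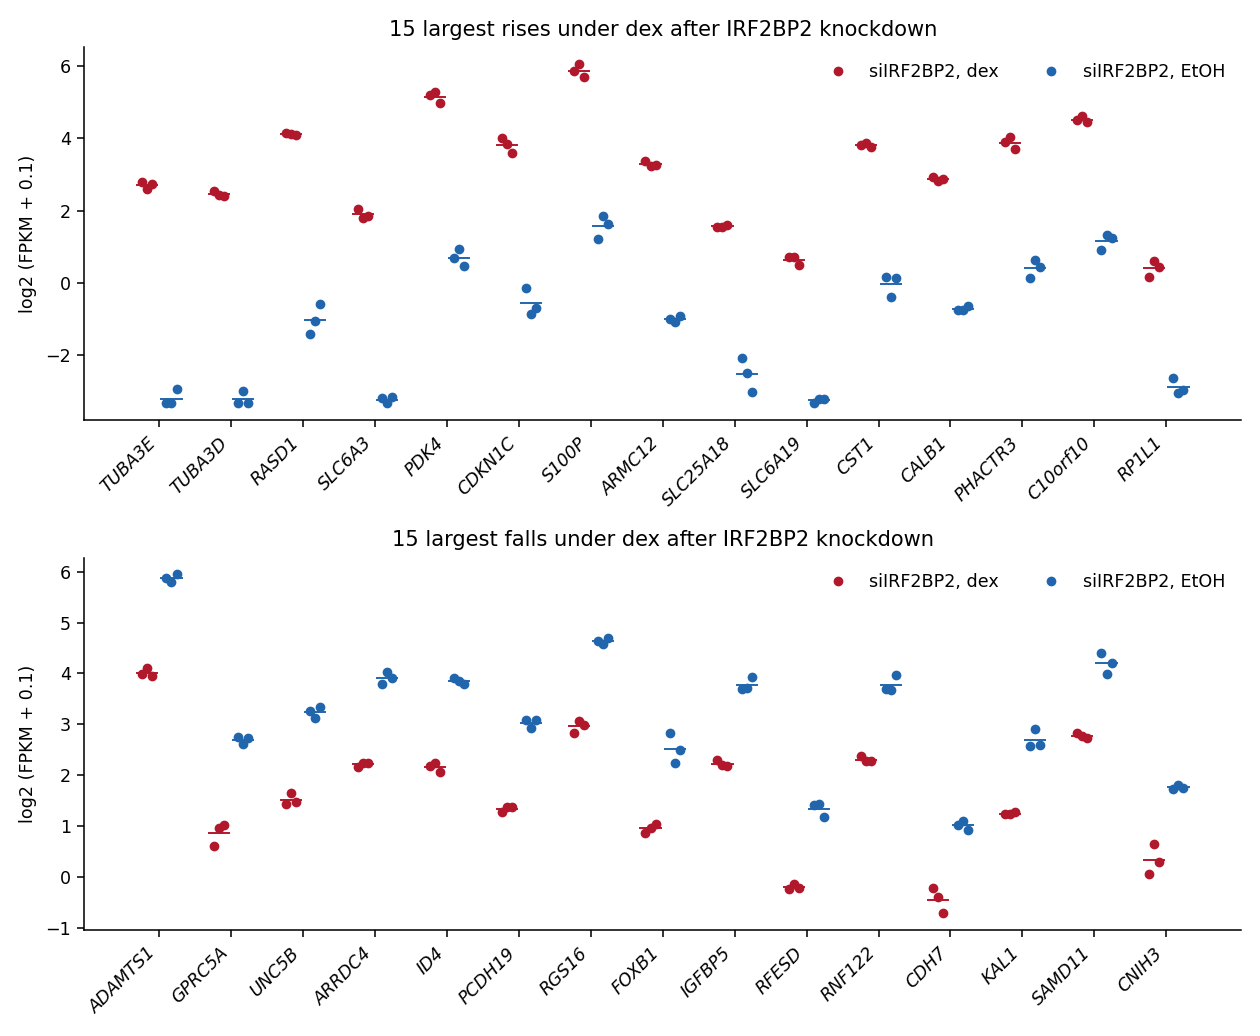
Expression of the 15 genes with the largest rises (top) and the 15 with the largest falls (bottom) under dex after IRF2BP2 knockdown, on the log2 (FPKM + 0.1) scale. Each point is 1 library (dex red, EtOH blue, 3 each) and each bar the mean of 3; no dex library overlaps an EtOH library, and several raised genes, such as TUBA3E and SLC6A3, lie near the floor of the scale under EtOH.

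Several of the largest rises had few or no reads without hormone. TUBA3E and TUBA3D, near-identical alpha-tubulin genes whose reads the counting could split between them and TUBA3C, had 6.8, 5.93 and 6.58 FPKM under dex, against 0, 0 and 0.031 FPKM under EtOH for TUBA3E. TUBA3D had 5.73, 5.29 and 5.15 FPKM under dex, against 0, 0.026 and 0 FPKM under EtOH. In reads, TUBA3E had 215, 166 and 288 under dex, against 0, 0 and 1 under EtOH, a ratio per tag of 694 with a 95% exact interval of 124 to 27500 that covers counting error only. TUBA3C had 11, 13 and 13 reads under dex, against none under EtOH. Set against a floor of 3 reads over the EtOH group, its ratio per tag was 12.8, which leaves out the counting error of the dex reads. SLC6A3, the dopamine transporter, had 327, 242 and 392 reads under dex, against 1, 0 and 1 under EtOH (ratio 499, interval 138 to 4120). SLC6A19, a transporter of neutral amino acids in kidney and gut, had 165, 145 and 195 reads under dex, against 0, 1 and 1 under EtOH (ratio 262, interval 72.2 to 2170). Both transporters were thus detected in every dex library and barely or not at all under EtOH.

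Other top rises started from a measurable level. RASD1, a Ras-like G protein named for its induction by dexamethasone, had 17.6, 17.4 and 16.9 FPKM under dex, against 0.278, 0.382 and 0.571 FPKM under EtOH. It rose by 5.13 ± 0.16 on the log2 scale (adjusted p = 1.71e-12). CDKN1C, the cyclin-dependent kinase inhibitor p57, had 15.9, 14.2 and 12.1 FPKM under dex, against 0.818, 0.453 and 0.516 FPKM under EtOH and rose by 4.37 ± 0.18 on the log2 scale (adjusted p = 3.51e-11). S100P, a small calcium-binding protein, had 57.9, 66 and 51.8 FPKM under dex, against 2.23, 3.53 and 2.99 FPKM under EtOH. It rose by 4.30 ± 0.21 on the log2 scale (adjusted p = 5.63e-10), and was by level among the 10 highest called genes under dex. CALB1, the calcium buffer calbindin, had 7.51, 6.99 and 7.29 FPKM under dex, against 0.497, 0.495 and 0.545 FPKM under EtOH. CST1, a cystatin that inhibits cysteine proteases, had 13.9, 14.5 and 13.4 FPKM under dex, against 1.02, 0.66 and 1 FPKM under EtOH. ARMC12, SLC25A18 (a mitochondrial glutamate carrier), PHACTR3 (a regulator of protein phosphatase and actin), C10orf10 and RP1L1 completed the list of 15, with log2 fold changes of 4.28 ± 0.13, 4.09 ± 0.21, 3.47 ± 0.14, 3.35 ± 0.10 and 3.28 ± 0.18. The rule that named them asked for dex libraries above all EtOH libraries.

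PDK4 joined a large rise to an IRF2BP2 peak at its start. This kinase shuts down pyruvate dehydrogenase and so turns cells from glucose towards fat as fuel. It had 36.5, 38.8 and 31.5 FPKM under dex, against 1.51, 1.81 and 1.3 FPKM under EtOH, and rose by 4.45 ± 0.12 on the log2 scale (adjusted p = 8.05e-13). An IRF2BP2 peak of the dex chromatin file (hg19 chr7:95226397-95226728) lay 472 bases from the PDK4 start, whereas the nearest peak of the EtOH file was 999791 bases away. PDK4, ITGA6 (an integrin of the laminin receptor) and HOXA9 (a homeobox factor) are the called named genes with a peak within 1 kb and a glucocorticoid half-site, AGAACA or its reverse complement TGTTCT, in the 250 bases before the start. They are shown 5′ to 3′ on the gene's strand, from RefSeq promoters on GRCh38.p14, with the half-sites in capitals. The build differs from that of the peaks, and the RefSeq start may differ from the start in the table. The half-sites were therefore not placed on the peaks.
PDK4 (chr7:95596517-95596766, minus strand): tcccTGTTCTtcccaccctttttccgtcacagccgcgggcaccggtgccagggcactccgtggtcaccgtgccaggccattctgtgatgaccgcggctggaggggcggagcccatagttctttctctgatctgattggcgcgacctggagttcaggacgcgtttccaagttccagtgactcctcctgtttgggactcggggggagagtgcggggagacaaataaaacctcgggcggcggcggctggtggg
ITGA6 (chr2:172427086-172427335, plus strand): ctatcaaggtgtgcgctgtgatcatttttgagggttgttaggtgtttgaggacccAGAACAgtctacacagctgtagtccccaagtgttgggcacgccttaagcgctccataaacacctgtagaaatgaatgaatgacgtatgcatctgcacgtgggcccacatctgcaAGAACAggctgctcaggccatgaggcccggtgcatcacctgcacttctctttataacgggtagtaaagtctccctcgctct
HOXA9 (chr7:27165538-27165787, minus strand): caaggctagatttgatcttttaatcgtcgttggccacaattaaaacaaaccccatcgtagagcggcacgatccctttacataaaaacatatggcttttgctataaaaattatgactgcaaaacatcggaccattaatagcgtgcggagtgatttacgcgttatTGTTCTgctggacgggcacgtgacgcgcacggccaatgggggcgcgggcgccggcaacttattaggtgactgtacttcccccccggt
The half-site of PDK4 starts at base -246 from the gene start, those of ITGA6 at -195 and -81, and that of HOXA9 at -87. Such half-sites are common: 49 of 706 windows of raised genes (6.94%) and 32 of 531 of lowered genes (6.03%) hold 1 or more, against 826 of 10831 windows of genes not called (7.63%) and 12.4% of all windows of that length. The full 15-letter site, AGAACA and TGTTCT with any 3 bases between them, was in none of the windows of tested genes. With up to 2 of its 12 fixed letters changed (either strand, overlapping the half-site search) it was in 0.992% of raised, 0.753% of lowered and 0.489% of uncalled genes. Of the 3 windows shown, that of ITGA6 holds such a match with 2 changes. A match of letters is a description and no test of binding was made.

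ITGA6 had 13.1, 13.5 and 13.2 FPKM under dex, against 9.82, 10.4 and 10.6 FPKM under EtOH and rose by 0.37 ± 0.07 on the log2 scale (adjusted p = 0.00263). HOXA9 went the other way, with 18.3, 18 and 16.7 FPKM under dex, against 38.8, 34 and 38.4 FPKM under EtOH, and fell by 1.06 ± 0.07 on the log2 scale (adjusted p = 1.95e-08). In both genes the dex libraries did not overlap the EtOH libraries. ITGA6 and HOXA9 had peaks near the start in both chromatin files, 810 and 68 bases away in the dex file and 902 and 170 bases away in the EtOH file.

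Most feedback inhibitors of the list rose, and some were not called. Of 18 tested members of the list of glucocorticoid receptor feedback and anti-inflammatory targets, 11 rose and 1 fell (median log2 fold change 0.60), where the background was 5.86% and 4.59% of tested genes with a median of 0.02. The same background stands beside the siIRF2BP2 counts of every list below. NFKBIA, the inhibitor that holds NF-kB in the cytoplasm, had 50.7, 55.4 and 44.6 FPKM under dex, against 18.4, 19.7 and 20.8 FPKM under EtOH. FKBP5, a co-chaperone that dampens the receptor itself, had 53, 55.8 and 45 FPKM under dex, against 22.1, 21.1 and 24.5 FPKM under EtOH. ZFP36, which speeds the decay of cytokine mRNA, had 22.6, 24.5 and 21.1 FPKM under dex, against 9.93, 7.87 and 10.3 FPKM under EtOH. Dex libraries lay above EtOH libraries in all 3. NFKBIA rose by 1.34 ± 0.08 on the log2 scale (adjusted p = 4.26e-09). FKBP5 and ZFP36 rose by 1.18 ± 0.08 and 1.28 ± 0.11 on that scale (adjusted p = 3.29e-08 and 2.96e-07). TNFAIP3 (the ubiquitin-editing enzyme A20) rose by 1.08 ± 0.11 on the log2 scale (adjusted p = 2.66e-06), and ERRFI1, an inhibitor of EGF receptor kinases, rose by 0.61 ± 0.06 on the log2 scale (adjusted p = 3.98e-06). DUSP1, ZBTB16, RGS2 and PIK3R1 also rose, by 0.59 to 0.97 on the log2 scale. ANXA1, a phospholipid-binding protein known as a mediator of glucocorticoid action, was the member that fell, with 6.45, 4.79 and 5.92 FPKM under dex, against 8.16, 8.62 and 7.8 FPKM under EtOH (log2 fold change -0.52 ± 0.12, adjusted p = 0.00997), and its call was lost without siIRF2BP2 dex replicate 2.

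TSC22D3, the glucocorticoid-induced leucine zipper, was the called gene with the highest level under dex. It had 96.6, 106 and 75.9 FPKM under dex, against 62.8, 62.4 and 71.7 FPKM under EtOH. Its lowest dex value, in replicate 3, was only just above its highest EtOH value, in replicate 3 as well. In reads it had 3880, 3769 and 4216 under dex, so most in replicate 3, the deepest library (28.5 M tags). The highest FPKM of any gene was 104.7 in that library, against 139.7 and 154.9 in siIRF2BP2 dex replicates 1 and 2. It rose by 0.49 ± 0.13 on the log2 scale (adjusted p = 0.0166), and the call was lost without siIRF2BP2 dex replicate 1 or 2, without siIRF2BP2 EtOH replicate 1 or 2, and in a fit of the 6 siIRF2BP2 libraries alone. Read density in this table has a common ceiling: the densest gene of each library had 2.83 to 3.11 reads per base, and TSC22D3 reached 2.17. Of 1109 tested genes above 1 read per base in a siIRF2BP2 library, 30 were called, where 1630 of all 15594 tested genes were (10.5%). Whether the ceiling limits the fold changes of such genes, or lowers their FPKM in deeper libraries, was not tested.

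In the salt and water transport list no member fell. SGK1, the kinase that keeps epithelial sodium channels at the membrane, had 27.3, 28.2 and 25.6 FPKM under dex, against 2.93, 2.9 and 3.38 FPKM under EtOH, and rose by 3.10 ± 0.09 on the log2 scale (adjusted p = 1.37e-12). CNKSR3, a scaffold of the same pathway, had 39.2, 42.4 and 35.9 FPKM under dex, against 9.95, 9.66 and 9.92 FPKM under EtOH and rose by 1.98 ± 0.09 on the log2 scale (adjusted p = 8.23e-11). The list gave 7 rises and 0 falls among 19 tested members, with a median of 0.24 (1 fall without siNON EtOH replicate 3). The channel subunits SCNN1A and SCNN1G were raised at low levels, to 0.556, 0.529 and 0.497 FPKM under dex, against 0.219, 0.276 and 0.186 FPKM under EtOH for SCNN1A (0.95 ± 0.17, adjusted p = 0.00101). The third subunit, SCNN1B, had overlapping groups (0.07 ± 0.23, adjusted p = 0.943). SLC12A3 (the thiazide-sensitive cotransporter), AQP3 (a water channel) and HSD11B2, which inactivates cortisol, rose by 1.34, 0.61 and 0.65 on the log2 scale, and the AQP3 call was lost without siIRF2BP2 dex replicate 3.

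Among 24 tested fuel metabolism genes, PDK4 included, 6 rose and 1 fell (median 0.04). SLC2A3, the glucose transporter GLUT3, had 28.1, 30.9 and 25.6 FPKM under dex, against 8.59, 8.32 and 9.53 FPKM under EtOH and rose by 1.66 ± 0.08 on the log2 scale (adjusted p = 5.63e-10). ACSL1, which activates fatty acids, had 37, 40.5 and 34.3 FPKM under dex, against 13.9, 14.3 and 15.3 FPKM under EtOH and rose by 1.35 ± 0.07 on the log2 scale (adjusted p = 9.39e-10). The 2 gluconeogenic enzymes went apart at low levels: G6PC, glucose-6-phosphatase, had 0.42, 0.488 and 0.439 FPKM under dex, against 0.01, 0.02 and 0.011 FPKM under EtOH and PCK1, phosphoenolpyruvate carboxykinase, had 0.109, 0.082 and 0.079 FPKM under dex, against 0.513, 0.528 and 0.708 FPKM under EtOH. G6PC rose by 2.27 ± 0.16 on the log2 scale (adjusted p = 4.18e-08), whereas PCK1 fell by 1.84 ± 0.20 on the log2 scale (adjusted p = 6.08e-06). With a filter of mean CPM of at least 1, PCK1 was not tested. FBXO32, a ubiquitin ligase of muscle atrophy, rose by 0.98 ± 0.11 and SESN1, a stress-induced inhibitor of growth signalling, by 0.49 ± 0.08.

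In the clock list, 6 of 18 members rose and 3 fell (median -0.08). PER1 had 45.2, 49.3 and 41.5 FPKM under dex, against 9.84, 8.64 and 10.9 FPKM under EtOH and rose by 2.20 ± 0.11 on the log2 scale (adjusted p = 7.15e-10). PER2, CRY2, ARNTL, TEF and CIART rose by 0.65 to 0.96, so activators (ARNTL) and repressors (PER1, PER2, CRY2, CIART) of the loop rose side by side. BHLHE40 and BHLHE41, repressors of the same loop, were lowered: BHLHE40 had 8.2, 9.04 and 8.68 FPKM under dex, against 18.7, 18.2 and 22.1 FPKM under EtOH and fell by 1.17 ± 0.12 on the log2 scale (adjusted p = 2.73e-06). HLF was the third fall (-0.46 ± 0.14, adjusted p = 0.0431). The calls of CIART and HLF were narrow, lost in 15 and 12 of 20 alternatives, CIART without siIRF2BP2 dex replicate 2 or 3, siIRF2BP2 EtOH replicate 1 or 3, any siNON dex library or siNON EtOH replicate 1 or 2, and HLF without any 1 of the 6 siIRF2BP2 or 3 siNON dex libraries. Without siNON EtOH replicate 3 the count of falls was 5.

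Transcription factors known as glucocorticoid targets split by gene. Of 20 members of that list 6 rose and 3 fell (median 0.12). CEBPD, a factor of acute-phase and fat-cell programmes, had 15, 14.6 and 12.7 FPKM under dex, against 2.98, 1.2 and 1.82 FPKM under EtOH and rose by 2.85 ± 0.22 on the log2 scale (adjusted p = 1.06e-07). KLF15, which drives amino-acid breakdown, had 18.6, 19.5 and 17.4 FPKM under dex, against 7.67, 6.28 and 7.12 FPKM under EtOH and rose by 1.39 ± 0.08 on the log2 scale (adjusted p = 3.21e-09). MYC fell below every EtOH library, with 13.3, 13.7 and 12.1 FPKM under dex, against 34.9, 32.2 and 37.4 FPKM under EtOH. It fell by 1.41 ± 0.08 on the log2 scale (adjusted p = 4.3e-09), and KLF10, a TGF-beta early gene, fell by 1.02 ± 0.10 on the log2 scale (adjusted p = 9.65e-07). HIF3A and SNAI2 rose at low levels, HIF3A to 0.198, 0.206 and 0.245 FPKM under dex, against 0.062, 0.028 and 0.048 FPKM under EtOH.

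CDKN1A, the inhibitor p21, had 66.6, 70.0 and 54.4 FPKM under dex, against 29.8, 27.5 and 31.1 FPKM under EtOH and rose by 1.10 ± 0.09 on the log2 scale (adjusted p = 2.36e-07), next to CDKN1C above. GADD45G and BTG2 rose by 1.29 ± 0.14 and 0.53 ± 0.07, and CDKN2B, GADD45A and BTG1 fell, by 0.61 for CDKN2B and 0.54 for GADD45A on the log2 scale. The list of 15 inhibitors thus held 4 rises and 3 falls, and 5 falls without siIRF2BP2 EtOH replicate 2. Of 30 replication and mitosis genes none rose and 2 fell, cyclins D1 and D2: CCND1 had 13.9, 14.2 and 14.1 FPKM under dex, against 24.3, 19.6 and 23 FPKM under EtOH and CCND2 had 14.5, 14.7 and 14.1 FPKM under dex, against 19.3, 18.6 and 21.1 FPKM under EtOH. MKI67 had 34.9, 36.3 and 31.5 FPKM under dex, against 33.2, 36.6 and 38.6 FPKM under EtOH, and its groups overlapped (-0.08 ± 0.08, adjusted p = 0.714). The list's median was 0.02, equal to that of all tested genes at 2 decimals.

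**Figure D2:**
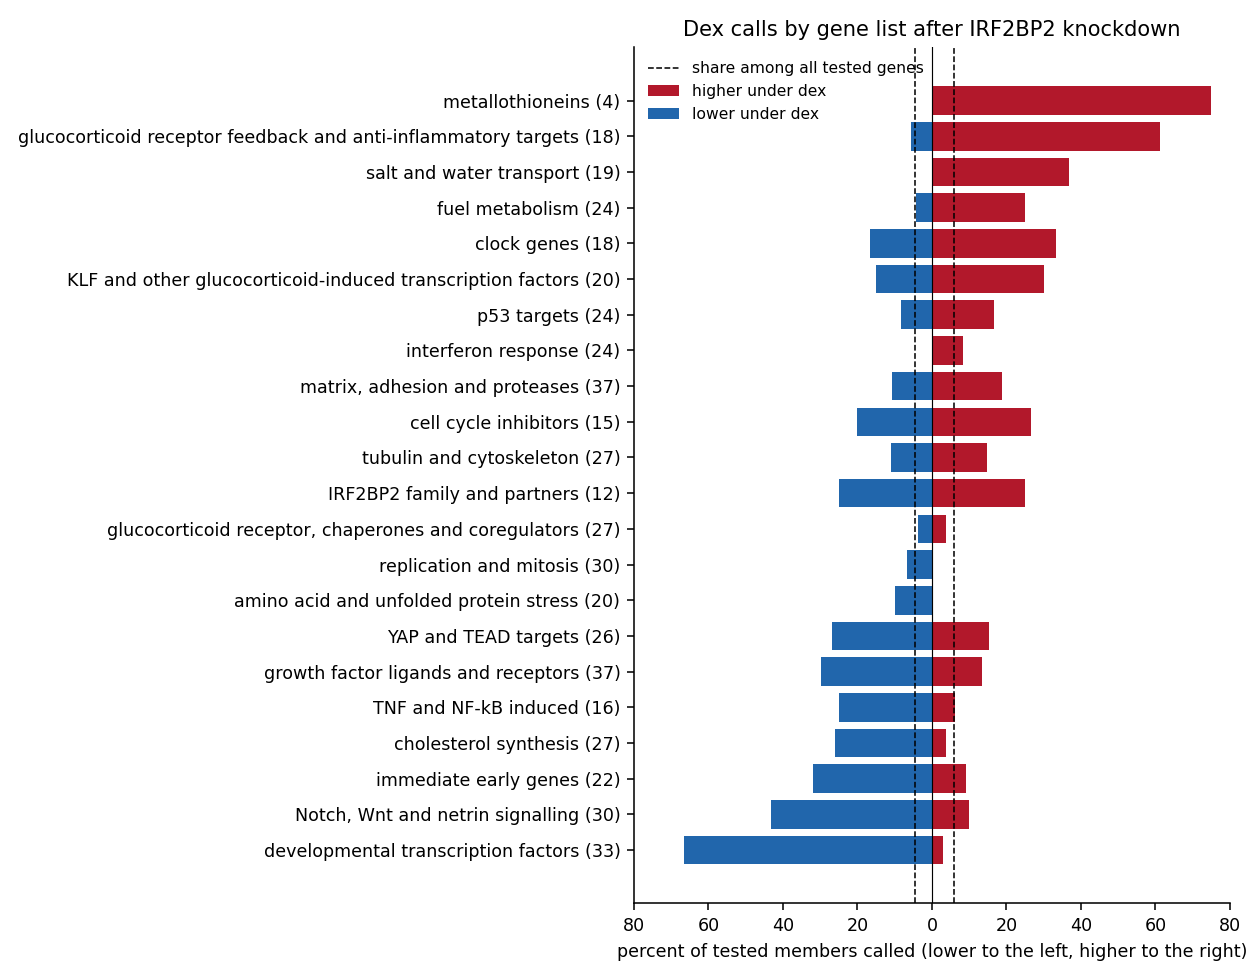
Percent of the tested members of each gene list that were called higher (red, to the right) or lower (blue, to the left) under dex after IRF2BP2 knockdown; the number of tested members stands in brackets and dashed lines mark the shares among all tested genes, 5.86% higher and 4.59% lower. Receptor feedback genes reach 11 of 18 on the right and developmental transcription factors 22 of 33 on the left.

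Most developmental transcription factors of the list fell. Of its 33 tested members 22 fell and 1 rose, 31 had a negative log2 fold change, and the median was -0.54. ID4, an inhibitor of helix-loop-helix factors, had 4.42, 4.63 and 4.08 FPKM under dex, against 15, 14.4 and 13.7 FPKM under EtOH and fell by 1.69 ± 0.10 on the log2 scale (adjusted p = 3.55e-09). SOX4, a factor of progenitor cells, had 11.7, 12.4 and 11.2 FPKM under dex, against 28.6, 26.8 and 29.4 FPKM under EtOH and fell by 1.26 ± 0.07 on the log2 scale (adjusted p = 1.45e-09). The relatives ID3 and ID1 were lower too, with log2 fold changes of -1.13 ± 0.10 and -1.27 ± 0.24, whereas ID2 had 29.7, 32.5 and 26.3 FPKM under dex, against 29, 28.9 and 30.1 FPKM under EtOH and overlapping groups (0.00 ± 0.08). Posterior HOX genes fell as well: HOXA13 had 5.8, 6.62 and 6.68 FPKM under dex, against 13, 12.7 and 13.3 FPKM under EtOH. HOXA10 had 12, 12.4 and 12 FPKM under dex, against 22, 21.2 and 24.9 FPKM under EtOH, and HOXD10 had 10.3, 9.99 and 10.2 FPKM under dex, against 17.5, 18.8 and 18.2 FPKM under EtOH. HOXA13 fell by 1.02 ± 0.07 on the log2 scale (adjusted p = 3.22e-08). HOXA10, HOXD10, HOXD13 and HOXA11 had log2 fold changes of -0.89 ± 0.07, -0.83 ± 0.08, -0.67 ± 0.07 and -0.53 ± 0.08. HOXC10, with 8.28, 8.27 and 9.23 FPKM under dex, against 9.5, 9.54 and 10.4 FPKM under EtOH, did not pass the test (-0.19 ± 0.09, adjusted p = 0.275). Kidney and nerve regulators SOX2, EYA1, LHX1, WT1, GATA3, ZIC2 and ZIC5 were also lowered, with log2 fold changes from -0.92 to -0.54 for these 7.

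SOX9, a factor of cartilage and of kidney tubule repair, was the member that rose. It had 8.94, 10.0 and 9.43 FPKM under dex, against 5.12, 4.55 and 5.3 FPKM under EtOH and rose by 0.91 ± 0.11 on the log2 scale (adjusted p = 1.61e-05). Across every processing alternative 20 to 26 of the list fell and 1 rose, and without siIRF2BP2 EtOH replicate 2 the count of falls was 23. In siNON cells 21 members fell and 1 rose (median -0.52), where 9.82% and 10.9% of all tested genes did, and 21 falls were shared by both responses. No member passed the test of the difference between responses.

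**Figure D3:**
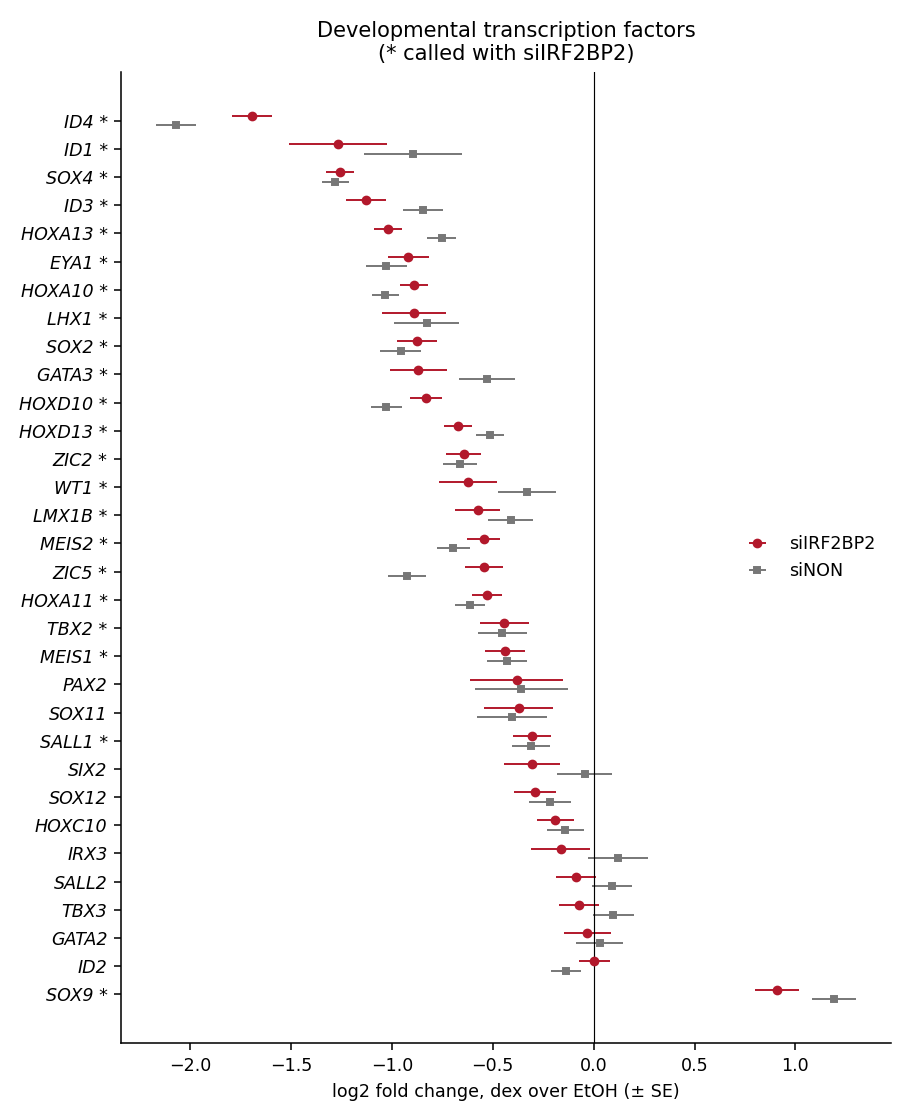
Log2 fold change of dex over EtOH, with its standard error, for 32 of the 33 tested developmental transcription factors, in siIRF2BP2 cells (red circles) and in siNON cells (grey squares); a star marks a call with siIRF2BP2. Most points lie left of 0 with both small interfering RNAs, from ID4 at -1.69 in siIRF2BP2 cells to SOX9 at 0.91.

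HEK293 markers overlapped that list. Of the 12 markers 6 fell and 1 rose (median -0.39), and 5 of the falls, HOXD13, ZIC2, HOXA11, ZIC5 and LHX1, are also developmental factors. NEFL, the light neurofilament chain, was the other, with 20.7, 21.9 and 19.4 FPKM under dex, against 28.9, 25 and 27.6 FPKM under EtOH (-0.39 ± 0.08, adjusted p = 0.00365). The rise was CDH2 (N-cadherin, 0.25 ± 0.07, adjusted p = 0.0366), whose call was lost without siIRF2BP2 dex replicate 1 or 2, without siIRF2BP2 EtOH replicate 1 or 2, without any siNON dex replicate, with the replicate block, with no filter on low values and in the 6 siIRF2BP2 libraries alone. In bulk RNA, fewer cells of a kind and less RNA per cell cannot be told apart.

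Signalling genes of the Notch, Wnt and netrin pathways fell too, with 13 falls and 3 rises among 30 (median -0.22). HES1, the classic Notch target, had 11.6, 12.3 and 11.5 FPKM under dex, against 29.2, 26 and 29.6 FPKM under EtOH. UNC5B, a netrin receptor, had 2.61, 3.06 and 2.68 FPKM under dex, against 9.47, 8.61 and 10.1 FPKM under EtOH. LGR5, an R-spondin receptor of stem cells, had 2.85, 3.33 and 2.92 FPKM under dex, against 6.41, 7.59 and 8.14 FPKM under EtOH. All 3 dropped below every EtOH library, HES1 by 1.25, UNC5B by 1.72 and LGR5 by 1.25 on the log2 scale, with adjusted p = 1.47e-08, 2.21e-08 and 2.36e-07. HEY1, HEY2 and NRARP, further Notch targets, were lowered by 0.71 to 0.94, as was the receptor NOTCH1 (-0.71 ± 0.19, adjusted p = 0.0225). On the Wnt side RNF43, AXIN2, SFRP1 and WNT5A were lowered by 0.40 to 0.59. The NOTCH1 and AXIN2 calls were lost without any siIRF2BP2 dex library or siIRF2BP2 EtOH replicate 1 or 3, that of NOTCH1 also with no filter on low values, and the SFRP1 call without siIRF2BP2 dex replicate 1. JAG1 (a Notch ligand), FZD7 (a Wnt receptor) and NTN4 (a netrin) were the 3 that rose, by 0.42, 0.56 and 0.48.

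Growth factor genes changed in both directions. Of 37 members 5 rose and 11 fell (median -0.12). FGF18 had 2.14, 2.22 and 2.32 FPKM under dex, against 0.204, 0.21 and 0.24 FPKM under EtOH and rose by 2.87 ± 0.16 on the log2 scale (adjusted p = 2.84e-09). PDGFA, the A chain of platelet-derived growth factor, had 7.45, 7.99 and 7.3 FPKM under dex, against 1.36, 1.35 and 1.88 FPKM under EtOH and rose by 2.25 ± 0.13 on the log2 scale (adjusted p = 4.26e-09). EGFR, the epidermal growth factor receptor, had 6.08, 6.62 and 6.92 FPKM under dex, against 3.26, 2.88 and 3.02 FPKM under EtOH and rose by 1.07 ± 0.11 on the log2 scale (adjusted p = 1.83e-06). IGFBP1, a binder of insulin-like growth factors, had 14, 11 and 12 reads under dex, against none under EtOH. Set against a floor of 3 reads over the EtOH group, its ratio per tag was 12.8, which leaves out the counting error of the dex reads. IGFBP3, a relative, was the fifth rise, with an FDR of 0.494 in the authors' deposited table. On the other side IGFBP5 had 4.85, 4.5 and 4.45 FPKM under dex, against 12.9, 13 and 15.1 FPKM under EtOH. FGF9 had 1.12, 1.08 and 1.15 FPKM under dex, against 2.89, 3.57 and 2.7 FPKM under EtOH, and FGFR2, an FGF receptor, had 6.05, 7.24 and 7.07 FPKM under dex, against 13.9, 13.3 and 14.6 FPKM under EtOH. IGFBP5 fell by 1.55 ± 0.10 on the log2 scale (adjusted p = 7.23e-09). FGF9 and FGFR2 had log2 fold changes of -1.37 ± 0.13 and -1.03 ± 0.08 (adjusted p = 9.93e-07 and 2.26e-07). Further falls were PDGFC, FGFR3, TGFB2, BMP4, BMP7, GDF15, INHBE and LIF, by 0.43 to 1.35. The LIF call was lost without any 1 siIRF2BP2 library, that of INHBE without siIRF2BP2 dex replicate 1 or 3 or EtOH replicate 1 or 3, both also with no filter on low values, and that of IGFBP3 without siIRF2BP2 dex replicate 2 or EtOH replicate 1.

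The other strong falls were scattered over functions. ADAMTS1, a secreted protease that cuts proteoglycans, had 15.8, 17.2 and 15.3 FPKM under dex, against 58.6, 55.6 and 61.5 FPKM under EtOH and fell by 1.86 ± 0.08 on the log2 scale (adjusted p = 6.67e-11). GPRC5A, an orphan receptor induced by retinoic acid, had 1.43, 1.85 and 1.92 FPKM under dex, against 6.64, 5.99 and 6.54 FPKM under EtOH and fell by 1.83 ± 0.12 on the log2 scale (adjusted p = 1.95e-08). ARRDC4, an arrestin-like regulator of glucose uptake, had 4.36, 4.61 and 4.64 FPKM under dex, against 13.7, 16.3 and 15 FPKM under EtOH and fell by 1.70 ± 0.11 on the log2 scale (adjusted p = 1.93e-08). RGS16, which shortens G-protein signals, had 6.98, 8.29 and 7.82 FPKM under dex, against 24.9, 23.7 and 26 FPKM under EtOH and fell by 1.68 ± 0.09 on the log2 scale (adjusted p = 6.72e-10). Adhesion genes PCDH19, CDH7 and KAL1 (anosmin) changed by -1.68 ± 0.11, -1.46 ± 0.15 and -1.45 ± 0.13. FOXB1, RFESD, RNF122, SAMD11 and CNIH3, an auxiliary subunit of glutamate receptors, filled the list of 15 with -1.57 ± 0.15, -1.54 ± 0.14, -1.47 ± 0.10, -1.43 ± 0.11 and -1.43 ± 0.14. Here too the rule asked for groups without overlap.

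Immediate early genes leaned downward. Of 22 members 7 fell and 2 rose (median -0.35), and the falls numbered 5 to 15 over the alternatives, with 15 under array weights and 5 without siIRF2BP2 dex replicate 1 or siIRF2BP2 EtOH replicate 3. ATF3, a stress-induced factor, had 17.8, 20.6 and 18.1 FPKM under dex, against 30.2, 29.2 and 34.4 FPKM under EtOH and fell by 0.73 ± 0.10 on the log2 scale (adjusted p = 6.66e-05). DUSP5, IER3, NR4A3, JUN, NR4A2 and DUSP6 were the other falls, DUSP5 by 1.03 and IER3 by 0.90. Without siIRF2BP2 dex replicate 1 or siIRF2BP2 EtOH replicate 3 the calls of NR4A2 and DUSP6 were lost, that of NR4A2 also without siIRF2BP2 dex replicate 2 or EtOH replicate 1 and that of DUSP6 without siIRF2BP2 dex replicate 3. IER3 is listed with 6 copies in the annotation, so its value is uncertain. FOSL2 and NR4A1 were the rises, with 7.71, 8.47 and 8.64 FPKM under dex, against 5.3, 4.57 and 5.03 FPKM under EtOH for FOSL2 and 12.7, 13.9 and 13.3 FPKM under dex, against 9.02, 8.07 and 9.57 FPKM under EtOH for NR4A1. FOS and EGR1 had values of -0.31 ± 0.17 and -0.35 ± 0.15 and did not pass the test, although EGR1 did with array weights, in the 6 siIRF2BP2 libraries alone and without siNON EtOH replicate 3.

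Of 26 TNF and NF-kB induced genes 10 had too few reads to test. Of the 16 tested, 4 fell and 1 rose (median -0.11). CXCL8, the chemokine interleukin 8, had 0.228, 0.419 and 0.268 FPKM under dex, against 1.38, 1.1 and 1.25 FPKM under EtOH and fell by 1.75 ± 0.19 on the log2 scale (adjusted p = 6.05e-06). PTGS2 (cyclooxygenase 2) and NFKBIZ were lowered by 0.96 and 0.63. CXCL2 passed narrowly (-0.66 ± 0.18, adjusted p = 0.0245), and its call was lost without siIRF2BP2 dex replicate 1 or siIRF2BP2 EtOH replicate 1 or 2, with no filter on low values and with voom on reads. BIRC3, an inhibitor of apoptosis, rose instead, with 3.52, 2.62 and 2.58 FPKM under dex, against 0.567, 0.638 and 0.418 FPKM under EtOH; it rose by 2.23 ± 0.19 on the log2 scale (adjusted p = 3.6e-07). With a filter of mean CPM of at least 1 only 2 falls were counted.

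Tubulin and cytoskeleton genes gave 4 rises and 3 falls among 27 (median -0.02), and 3 of the rises were the TUBA3 genes. TPM2, a tropomyosin, rose by 0.72 ± 0.13, while the keratins KRT17 and KRT19 had log2 fold changes of -0.81 ± 0.12 and -0.52 ± 0.09. YAP and TEAD targets gave 4 rises and 7 falls among 26 (median -0.20), and 4 falls without siIRF2BP2 dex replicate 1 or without siIRF2BP2 EtOH replicate 3. F3, tissue factor, which starts blood clotting, had 18.1, 19.5 and 17.2 FPKM under dex, against 3.44, 3.05 and 3.12 FPKM under EtOH and rose by 2.48 ± 0.08 on the log2 scale (adjusted p = 3.48e-12). CTGF, a matrix-associated growth modulator, had 10.3, 11.5 and 10.4 FPKM under dex, against 5.37, 4.25 and 5.35 FPKM under EtOH and rose by 1.10 ± 0.11 on the log2 scale (adjusted p = 1.71e-06), while its relative CYR61 was lowered by 0.39 ± 0.11 on the log2 scale (adjusted p = 0.0307), a call lost without siIRF2BP2 dex replicate 1 or 2 or siIRF2BP2 EtOH replicate 1 or 3 and with no filter on low values. Matrix, adhesion and protease genes gave 7 rises and 4 falls among 37 (median -0.01). PLAUR, the urokinase receptor, had 19.2, 21.8 and 19.2 FPKM under dex, against 5.46, 6.22 and 6.44 FPKM under EtOH and rose by 1.72 ± 0.09 on the log2 scale (adjusted p = 7.15e-10). THBS1, thrombospondin, had 4.34, 4.54 and 4.87 FPKM under dex, against 1.49, 1.23 and 1.72 FPKM under EtOH and rose by 1.58 ± 0.16 on the log2 scale (adjusted p = 1.87e-06). ADAMTS9 rose by 1.30 ± 0.12 although ADAMTS1, of the same protease family, fell.

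Cholesterol genes leaned down, with 7 falls and 1 rise among 27 (median -0.06). INSIG1, the sterol-sensing retention protein, had 23.7, 25.4 and 22.1 FPKM under dex, against 36.9, 35.8 and 39.5 FPKM under EtOH and fell by 0.66 ± 0.07 on the log2 scale (adjusted p = 8.28e-06). HMGCS1, the synthase at the head of the pathway, fell by 0.67 ± 0.08 on the log2 scale (adjusted p = 2.1e-05). NSDHL, a late enzyme, rose, with 39.4, 43.2 and 37 FPKM under dex, against 23.4, 22.6 and 27.2 FPKM under EtOH. Metallothioneins, metal buffers known to be induced by glucocorticoids, rose in 3 of 4 tested members: MT1X had 9.84, 11.9 and 12.1 FPKM under dex, against 4.86, 4.58 and 5.58 FPKM under EtOH and MT2A had 30.6, 34.4 and 27.2 FPKM under dex, against 19.4, 19.3 and 19.2 FPKM under EtOH. They rose by 1.16 ± 0.13 and 0.66 ± 0.10, and MT1F by 0.62 ± 0.12. The MT1F call was lost with voom on reads, which left 2 rises, and the authors' deposited table gives MT1F an FDR of 0.546.

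Among all tested genes 5.86% were called higher and 4.59% lower, and the counts of the next lists were not tested against these shares. Interferon response genes gave 2 rises and 0 falls among 24 (median 0.08). IFIT3 rose by 0.92 ± 0.23 on the log2 scale (adjusted p = 0.0136) and STAT2 rose by 0.28 ± 0.08 on the log2 scale (adjusted p = 0.0373). The STAT2 call was lost with the replicate block and without any single siIRF2BP2 or siNON dex library, and that of IFIT3 without siIRF2BP2 dex replicate 1 or 2 or siIRF2BP2 EtOH replicate 1 and with no filter on low values. Leaving out single libraries changed these counts, to 0 rises without siIRF2BP2 dex replicate 1 or 2 or siIRF2BP2 EtOH replicate 1, to 1 without siIRF2BP2 dex replicate 3, siIRF2BP2 EtOH replicate 3 or any siNON dex replicate (with 1 fall for siNON dex replicate 1), and to 4 rises and 2 falls without siNON EtOH replicate 3. Amino acid and unfolded protein stress genes gave 0 rises and 2 falls among 20, DDIT3 (-0.40 ± 0.10) and TRIB3 (-0.33 ± 0.10; lost with the replicate block and with no filter on low values). The falls numbered 4 without siIRF2BP2 EtOH replicate 2, 0 without siIRF2BP2 EtOH replicate 3, and 1 without siIRF2BP2 dex replicate 1 or 3, siIRF2BP2 EtOH replicate 1 or siNON dex replicate 1. The p53 targets gave 4 rises, CDKN1A, BTG2, SESN1 and AEN, and 2 falls, GDF15 and BBC3, among 24. BBC3 was no longer called without siIRF2BP2 EtOH replicate 1. Receptor chaperones and coregulators gave 1 rise (FKBP5; 2 rises without siIRF2BP2 EtOH replicate 3) and 1 fall among 27. That fall was NR3C2, the mineralocorticoid receptor, with 1.74, 1.97 and 1.93 FPKM under dex, against 3.54, 3.88 and 4.18 FPKM under EtOH, which fell by 1.00 ± 0.11 on the log2 scale (adjusted p = 5.49e-06).

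The list of IRF2BP2 relatives and partners moved in both directions. Of 12 members 3 rose and 3 fell (median 0.01), and 5 rose without siNON EtOH replicate 3. IRF2BP2 itself, the target of the small interfering RNA, is one of the falls, with the call lost in 9 of 20 alternatives as given above. IRF2BPL, a close relative, had 5.37, 5.62 and 5.18 FPKM under dex, against 12.4, 8.21 and 8.95 FPKM under EtOH and fell by 0.83 ± 0.13 on the log2 scale (adjusted p = 0.000272). CBFA2T3, a corepressor of the ETO family, had 0.916, 1.05 and 0.966 FPKM under dex, against 0.321, 0.268 and 0.4 FPKM under EtOH and rose by 1.34 ± 0.24 on the log2 scale (adjusted p = 0.000917), while RUNX1T1, its relative, was lowered (-0.59 ± 0.14, adjusted p = 0.0113) and lost its call without siIRF2BP2 dex replicate 2. NFATC2, a reported partner of IRF2BP2, rose by 0.70 ± 0.17 (adjusted p = 0.0128) and lost its call without siIRF2BP2 dex replicate 3 or siIRF2BP2 EtOH replicate 2.

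TIPARP, a mono-ADP-ribosyltransferase, had 65.5, 69.5 and 53.4 FPKM under dex, against 10.8, 10.9 and 11.3 FPKM under EtOH and rose by 2.49 ± 0.10 on the log2 scale (adjusted p = 3.84e-11). MYOM2, a myosin-binding protein of muscle, had 50.8, 56.7 and 46.8 FPKM under dex, against 12.7, 11.6 and 13.6 FPKM under EtOH and rose by 2.01 ± 0.10 on the log2 scale (adjusted p = 7.15e-10). NDRG1, a stress-responsive protein, had 53.3, 59.1 and 47.4 FPKM under dex, against 24.5, 24.2 and 29.4 FPKM under EtOH and rose by 1.03 ± 0.11 on the log2 scale (adjusted p = 3.52e-06). PDLIM1, RHOB and IMPDH1 rose by 0.49 ± 0.11, 0.79 ± 0.10 and 0.43 ± 0.09. With CDKN1A, S100P, FKBP5 and TSC22D3 these are the 10 called genes with the highest mean FPKM under dex, and all 10 rose. Ranking called genes by their dex level favours raised genes, so this shared direction is no separate result.

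Against the control response, the knockdown response called fewer genes. In siNON cells dex raised 1704 genes (10.9%) and lowered 1531 (9.82%). These counts and the shares built on them include siNON EtOH replicate 3, which stood apart from its group, and are not given without it. Of the genes raised after knockdown 803 were also raised in siNON cells, which is 87.9% of the siIRF2BP2 list and 47.1% of the siNON list. Of the lowered genes 573 were shared, 80% and 37.4% of the lists, and no gene was called in opposite directions. The shared rises had a median of 0.70 in siIRF2BP2 cells and 0.79 in siNON cells, and 591 of the 803 were smaller after knockdown. For shared falls the medians were -0.62 in siIRF2BP2 cells and -0.66 in siNON cells, and 331 of 573 were smaller after knockdown. The 2 responses share no library. These are counts and medians without a test. The spread of a gene was pooled over all groups of the fit, so its standard error was the same in both responses.

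**Figure D4:**
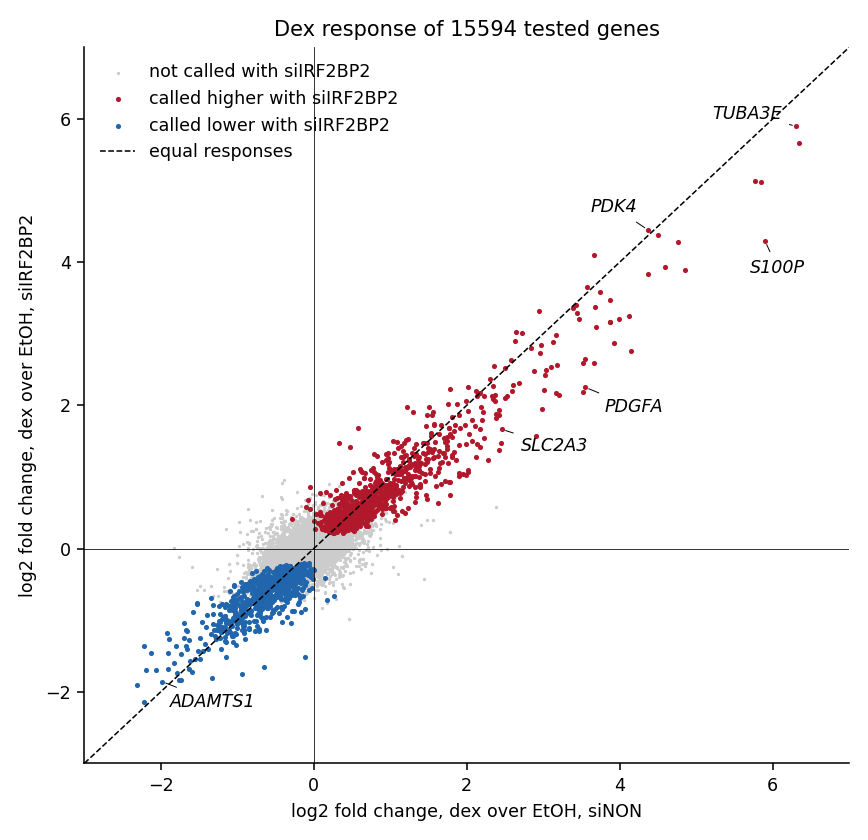
Log2 fold change of dex over EtOH for the 15594 tested genes in siIRF2BP2 cells (vertical axis) and in siNON cells (horizontal axis); each point is 1 gene, red where called higher and blue where called lower with siIRF2BP2. Points follow the dashed line of equal responses, with many strong rises below it, among them PDGFA, SLC2A3 and S100P.

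The difference between the responses was tested gene by gene, and 2 of 15594 genes passed (0.0128%), PDGFA and SLC2A3. At an unadjusted p under 0.05 there were 805. In siNON cells PDGFA had 15.3, 14.1 and 14.7 FPKM under dex, against 1.29, 1.27 and 0.96 FPKM under EtOH. It rose by 2.25 ± 0.13 after knockdown, against 3.55 ± 0.13 in siNON cells, a difference of -1.30 ± 0.19 (adjusted p = 0.0358). The siNON dex libraries lay above all siIRF2BP2 dex libraries, and the EtOH libraries of both kinds lay between 0.960 and 1.88 FPKM. SLC2A3 had 35.5, 33.8 and 35.3 FPKM under dex, against 6.72, 6.37 and 5.72 FPKM under EtOH in siNON cells. Its rise was 1.66 ± 0.08 after knockdown, against 2.46 ± 0.08 in siNON cells, a difference of -0.79 ± 0.12 (adjusted p = 0.0358), and here the EtOH libraries of siIRF2BP2 cells lay above those of siNON cells. No gene passed without siIRF2BP2 dex replicate 1, 2 or 3, without siIRF2BP2 EtOH replicate 1 or 3 or without any siNON dex replicate, while 2 passed without siIRF2BP2 EtOH replicate 2 or siNON EtOH replicate 3, 7 without siNON EtOH replicate 1 and 5 without siNON EtOH replicate 2. The difference stayed negative throughout, from -1.37 to -1.09 for PDGFA and from -0.86 to -0.73 for SLC2A3.

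Below the threshold, the next genes by p included rises and falls that were smaller after knockdown and genes that went the other way. S100P rose by 4.30 ± 0.21, against 5.90 ± 0.21 in siNON cells (difference -1.61 ± 0.30, adjusted p = 0.167). Its siNON values were 74.4, 69.3 and 74 FPKM under dex, against 1.06, 1.79 and 0.72 FPKM under EtOH. C6orf223 rose by 2.19 ± 0.17, against 3.53 ± 0.17 (difference -1.34 ± 0.23, adjusted p = 0.103), and GPER1, a membrane oestrogen receptor, by 1.38 ± 0.15, against 2.42 ± 0.15 (adjusted p = 0.24). Among falls, MID1, a ubiquitin ligase of microtubules, had 4.37, 4.46 and 4.69 FPKM under dex, against 10.7, 10.9 and 11.1 FPKM under EtOH after knockdown. In siNON cells it had 3.31, 3.38 and 3.44 FPKM under dex, against 12.2, 13.5 and 12.8 FPKM under EtOH, and the difference was 0.64 ± 0.11 (adjusted p = 0.088). ZNF711, a zinc-finger factor on the X chromosome, had 22.5, 21.9 and 18 FPKM under dex, against 49.3, 59.6 and 51.1 FPKM under EtOH after knockdown and 11.8, 11.3 and 10.3 FPKM under dex, against 45.3, 52.1 and 60.2 FPKM under EtOH in siNON cells, a difference of 0.87 ± 0.15 (adjusted p = 0.103). SEMA3C, CREB5 and KAL1 were the other named falls of this kind, with differences of 0.74 ± 0.21, 0.69 ± 0.16 and 0.68 ± 0.18. Genes with a more positive response after knockdown included OR51E2, an odorant receptor family gene, with 4, 3 and 8 reads under dex, against 7, 5 and 3 under EtOH after knockdown. In siNON cells it had 3, 1 and 0 reads under dex, against 14, 18 and 28 under EtOH (difference 1.84 ± 0.32, adjusted p = 0.103). IL12RB1, an interleukin receptor chain, had a difference of 1.35 ± 0.26 (adjusted p = 0.181), with no more than 22 reads in any library. LOC101929767 had 79, 77 and 102 reads under dex, against 76, 68 and 59 under EtOH after knockdown, and 54, 50 and 60 under dex, against 67, 63 and 73 under EtOH in siNON cells (difference 0.70 ± 0.14, adjusted p = 0.246). SH3BP5-AS1, an antisense gene and so uncertain in counts whose strand setting is not given, had a difference of 0.69 ± 0.29 (adjusted p = 0.794). These genes are described by their values, and no difference among them passed the adjusted threshold.

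Some genes were called after knockdown and not in siNON cells, 111 rises and 143 falls. Of these, 105 and 139 had the same sign in siNON cells, and none passed the test of the difference. Only 8 of them changed by 1 or more on the log2 scale, 3 up (HSPA6, LINC00552 and MIR7844) and 5 down (INHBA, OSTN, FOXB2 and TAL2 among them), genes picked out after their values were seen. Of these, MIR7844 lost its call in 9 of 19 alternatives (6 of them without siIRF2BP2 dex replicate 1 or 2, any siIRF2BP2 EtOH library or siNON dex replicate 1), FOXB2 in 5, among them those without siIRF2BP2 dex replicate 1 or any siIRF2BP2 EtOH library, and OSTN without siIRF2BP2 dex replicate 3. INHBA, the activin A subunit, had 0.246, 0.101 and 0.178 FPKM under dex, against 0.8, 0.67 and 0.545 FPKM under EtOH after knockdown. In siNON cells it had 0.137, 0.131 and 0.22 FPKM under dex, against 0.185, 0.123 and 0.252 FPKM under EtOH. Its siIRF2BP2 EtOH libraries lay above all siNON libraries, and the dex libraries of both kinds overlapped. The difference was -1.39 ± 0.33 (unadjusted p = 0.00063, adjusted p = 0.328). HSPA6, an inducible heat-shock protein, had 0.604, 0.6 and 0.635 FPKM under dex, against 0.122, 0.157 and 0.232 FPKM under EtOH after knockdown and 0.28, 0.358 and 0.324 FPKM under dex, against 0.202, 0.261 and 0.155 FPKM under EtOH in siNON cells, a difference of 0.95 ± 0.26 (adjusted p = 0.494).

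IRF2BP2 chromatin peaks lay near the starts of raised, lowered and uncalled genes in different shares, which also differed between the dex and the EtOH peak file. The peaks come from HEK293-GR cells given 100 nM dex or EtOH for 1 h, with 2 labelled samples each, whose own labels name steroid-depleted medium but no small interfering RNA; whether these cells were transfected was not given for each sample. The dex file holds 1400 peaks of 332 bases and the EtOH file 1108 peaks of 343 bases (hg19), with a score of 1 for every peak. A dex peak lay within 10 kb of the start of 53 of 914 genes raised after knockdown (5.80%), 23 of 716 lowered genes (3.21%) and 152 of 13964 uncalled genes (1.09%). An EtOH peak lay within 10 kb of 12 raised genes (1.31%), 40 lowered genes (5.59%) and 154 uncalled genes (1.10%). So raised genes had more dex than EtOH peaks nearby, and lowered genes more EtOH than dex peaks. These shares are descriptions with no test, and the 2 files were called separately and differ in the number of peaks. Among rises of at least 1 the shares were 9.30% for dex and 1.16% for EtOH peaks, and among falls of at least 1 they were 6.14% and 7.89%.

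**Figure D5:**
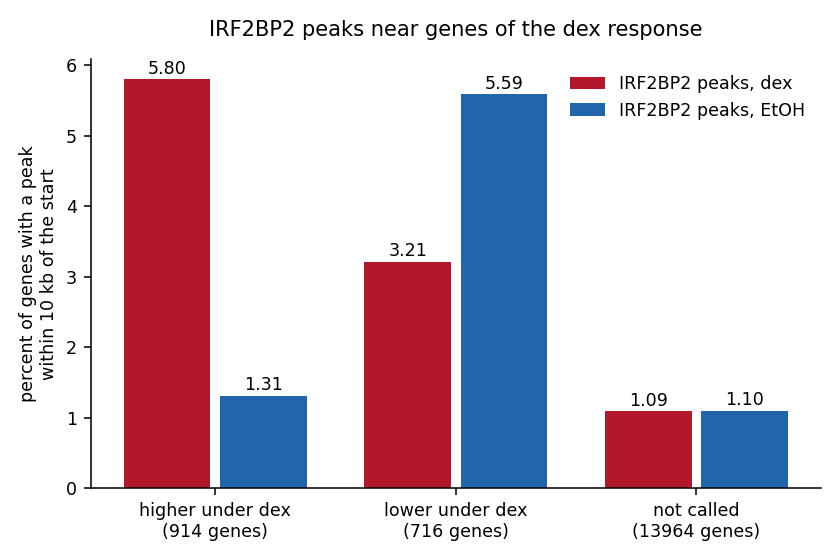
Percent of genes raised, lowered or not called under dex after IRF2BP2 knockdown that have an IRF2BP2 peak within 10 kb of their start, for peaks of dex-treated cells (red) and of EtOH-treated cells (blue). Raised genes show 5.80% for dex and 1.31% for EtOH peaks, lowered genes 3.21% and 5.59%, and uncalled genes 1.09% and 1.10%.

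C1QTNF1, a secreted relative of adiponectin, had 25.7, 28.2 and 23.9 FPKM under dex, against 3.42, 2.88 and 3.06 FPKM under EtOH and rose by 3.02 ± 0.10 on the log2 scale (adjusted p = 1.71e-12), with a dex peak 2551 bases from its start and the nearest EtOH peak 465324 bases away. PER1 and KLF15 had dex peaks at 1907 and 1237 bases, and GPR64 (an adhesion receptor of the epididymis, log2 fold change 2.18 ± 0.09) at 5025 bases. RASSF4 and CLN8, with log2 fold changes of 1.62 ± 0.10 and 1.04 ± 0.07, had theirs at 4429 and 9171 bases. NRP1, a receptor for semaphorins and VEGF, fell (-1.23 ± 0.09) with an EtOH peak at 8483 bases and the nearest dex peak 174399 bases away. CDKN1A, ATF3 and NR4A3 had peaks of both files at or within 11 bases of the start and moved in different directions, CDKN1A up and the other two down. IRF2BP2 itself had an EtOH peak 193 bases from its start (chr1:234744736-234745078) and no dex peak nearer than 85620 bases. HOXA10-AS, an antisense gene of the HOXA cluster, had 3.56, 3.5 and 3.69 FPKM under dex, against 12.5, 12.1 and 12 FPKM under EtOH, but strand use in the counting is not stated and its reads cannot be told apart from those of its sense neighbours.

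The A549 comparison is given from the authors' deposited table alone. A549 is a lung adenocarcinoma line with its own receptor, and its columns pool the replicates. With siIRF2BP2, dex raised 8.74% and lowered 6.96% of A549 genes in the authors' deposited table (FDR under 0.05). Of 914 genes raised in HEK293-GR cells, 349 (38.2%) were higher and 75 (8.21%) lower in A549 by the authors' deposited table, and of 716 lowered genes 96 (13.4%) were higher and 204 (28.5%) lower. Among uncalled genes 11.9% were higher and 9.29% lower there. The shared rises are 15.6% of the authors' A549 higher list and the shared falls 11.4% of their lower list. Individual genes went apart: the authors' deposited table gives UNC5B a log2 fold change of 3.90 in A549, where it fell in HEK293-GR cells, and RASD1 one of -0.39 (FDR 0.273). The pooled A549 levels of UNC5B were near the floor, 0.073 FPKM under dex, against 0.005 FPKM under EtOH. For TSC22D3 and FKBP5 the authors' deposited table gives 3.57 and 4.07 in A549, where limma gave 0.49 ± 0.13 and 1.18 ± 0.08 in HEK293-GR cells.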

How the data were processed

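RNA of 12 HEK293-GR libraries was analysed, with IRF2BP2 peaks of the same line and the A549 comparison as context. Per the submitters' processing notes, the RNA work used TopHat2 and Bowtie2, after FastQC and Trimmomatic 0.33, with HOMER and edgeR also named. ChIP tools were Bowtie 0.12.9, bedtools and HOMER 4.10.3, the build was hg19, and roles are not stated. Levels are FPKM, which the authors scaled to exon length and tags, per the file headers. FPKM times length gave whole reads in at least 99.99% of genes checked (tolerance 0.01), which gave the depth. The deposited log2 fold changes, p-value and FDR columns are the authors' comparisons. Every peak has a score of 1 in the deposited files, so positions alone were used.

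A gene was tested when 3 libraries or more held 10 reads of it. All 12 libraries entered a single limma fit (version 3.58.1, trended, under R 4.3.3) of log2 FPKM with a pseudocount of 0.1, leaving 8 residual degrees of freedom. Calls used a Benjamini-Hochberg adjusted p under 0.05, and the script was tested on simulated data. A log2 change on this scale understates that of low genes. The ± after a log2 value is its standard error. Exact intervals cover counting error only, and ratios to a floor take the dex reads as exact. Named are the 15 largest rises and falls (CPM averaging 5 or more in the group where they are higher, no overlap, coding names), the 10 called genes highest under dex, up to 6 genes of each list by p, the genes leading the difference between responses, and the 10 called genes with the smallest p within 10 kb of a peak. Other list members named were picked after their values were seen. The members and lists were chosen with earlier results of these data known.

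Alternatives were the pseudocount, filter, scaling, voom, array weights, the 6 siIRF2BP2 libraries alone, a replicate block and each library left out. List counts without siIRF2BP2 EtOH replicate 2 were added after seeing the data. A few genes of the lists are counted but not reported by name here.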

Additional observations from a re-analysis of the deposited data

Results flagged for a closer look

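The dex responses of siIRF2BP2 and siNON cells differed in 2 genes by a test of the difference itself. PDGFA differed by -1.30 and SLC2A3 by -0.79 on the log2 scale (siIRF2BP2 minus siNON), so both rose less after knockdown. Both passed the test in 9 of 19 processing alternatives.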

How the results depend on the processing

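The 1630 calls of the siIRF2BP2 response stayed within 1.5 times under every alternative except array weights, which called 3329 genes (1756 higher and 1573 lower); leaving out 1 library gave 1250 to 2055 calls (677 to 1117 higher and 516 to 938 lower). Median-of-ratios scaling gave 878 higher and 899 lower genes, so 49.4% of calls were higher, against 56.1% before, while the median of all genes was -0.01. For the difference between responses, 22 genes were called with a pseudocount of 1, 75 with array weights and 0 with the replicate block, and 0 to 7 without 1 library. With the replicate block the response had 818 higher and 632 lower genes. Same-numbered siIRF2BP2 libraries had deviations correlated at -0.0064, -0.19 and 0.0075. Larger values occurred between libraries with different numbers. siIRF2BP2 EtOH replicate 2 had 0.572 with siNON EtOH replicate 3, the other library that stood apart, and -0.477 with siNON EtOH replicate 1. With 3 libraries per group these values cannot settle whether the numbers pair the libraries. Of 205 called genes named or examined, none reversed, and 31 lost their call in 146 of 4082 values. Being called in the main fit selected these genes, and the alternatives reuse its libraries, so reversals were unlikely from the outset. Of 36 not called, 15 gained a call in 42 values (SLC7A5 in 8, ISG15 in 6 and DDX58 in 5 alternatives), and 8 reversed in 17 values. With array weights CD14 was -0.032, SCNN1B -0.109, MKI67 0.01 and OR51E2 -0.142; with median-of-ratios scaling ID2 was -0.024 and OR51E2 -0.002. OR51E2 ran from -0.097 to 0.113 without 1 library, ID2 from -0.069 to 0.083, SCNN1B from -0.186 to 0.249, ALDH1A1 from -0.036 to 0.13, NKX2-1 from -0.135 to 0.117 and LUM from -0.579 to 0.002. The SLC6A3 difference was negative in the main fit and 0.262 ± 0.591 with voom. This gene had 1, 0 and 1 reads under EtOH after knockdown, and 1, 2 and 2 in siNON cells. The cause was not tested. With peak distances of 1 and 50 kb, raised genes had dex peaks in 1.20% and 14.9% and EtOH peaks in 0.766% and 4.70%, lowered genes dex peaks in 1.12% and 11.5% and EtOH peaks in 1.96% and 15.9%, and uncalled genes dex peaks in 0.201% and 4.98% and EtOH peaks in 0.372% and 4.43%; at 50 kb rises of at least 1 had EtOH peaks in 3.88%. Depth limits the precision of genes with few reads.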
